A study of Mus musculus with 8 samples.

Results

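The respiratory chain of the mitochondrion passes electrons from nutrients to oxygen and uses the energy to make ATP. Complex II (succinate dehydrogenase) takes electrons from the citric acid cycle, complex III (the cytochrome bc1 complex) hands them to cytochrome c, complex IV (cytochrome c oxidase) gives them to oxygen, and complex V (ATP synthase) makes ATP. Complex II is built from nuclear genes alone, whereas complexes III, IV and V join nuclear subunits with a few subunits encoded in mitochondrial DNA. The heart is among the tissues richest in these complexes, and several complex IV subunits exist as a heart and muscle isoform and a ubiquitous isoform.

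The nuclear genes of complexes II to V were followed in the left ventricle of male wild-type C57BL/6J mice. Members were taken by gene name, as every row whose name begins with Sdha to Sdhd, Uqcr, Cox4 to Cox8 or Atp5, without processed pseudogenes marked as such in the name. This gave 49 of the 55679 rows, under 48 names. Complex II had 4 rows, complex III 8, complex IV 19 and complex V 18. Of these rows, 46 passed the filter of a mean of at least 0.1 FPKM and were tested among 19364 genes. The other 3 were Cox7b2 with 0 to 2 fragments per library, Cox8c with 0 fragments in every library, and a second Atp5o row (ENSMUSG00000116933) with 0 fragments in every library. A count of 0 allows up to 3 fragments in a library.

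Control mice received saline for 7 days, and ANG II mice received 1500 ng/kg/min of angiotensin II, a hypertensive hormone, for 7 days through a pump placed under the skin. Each group had 4 libraries, named control 1 to 4 and ANG II 1 to 4, and both groups shared strain, sex and genotype. Blood was washed out of the heart with saline, and mRNA was captured on oligo(dT) beads. Values are FPKM, the fragments of a gene per kilobase of transcript, scaled to the mapped fragments of the library, and the libraries held between 14455717 and 16564956 fragments.

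The tissue carried the markers of a ventricle. The summed FPKM of 10 cardiomyocyte markers was 46521 to 47858 in control and 35379 to 37847 in ANG II, and 5 of the 10 were lower and 0 higher at an adjusted p-value under 0.05. All 6 fibroblast markers rose, with sums of 376 to 538 in control and 1733 to 1973 in ANG II, and all 6 macrophage markers rose, with sums of 98.2 to 122 and 237 to 317. Of 5 endothelial markers 2 rose, with sums of 343 to 396 and 392 to 471. Among all genes tested, 28.4% were higher and 4.91% were lower at this threshold. The 3 atrial markers Myl7, Myl4 and Sln summed to 1.15 to 48.8 in control, to 52.5 to 126 in ANG II 1, 2 and 4, and to 230.5 in ANG II 3, and 1 of them rose (Sln, adjusted p = 0.0291, with overlap), a call lost without ANG II 3 (0.0855), as were those of the macrophage marker Cd14 (0.0597) and the endothelial marker Cdh5 (0.112). Of 7 skeletal muscle markers 3 were tested and 1 rose (Tnnt3), with sums of 2.82 to 3.81 in control and 3.53 to 6.63 in ANG II, and Myh4 was at 0 in every library. Of 5 brown adipocyte markers 3 were tested and 1 rose (Cidea), with sums of 14.2 to 19.4 and 21.8 to 27.5, Elovl3 was at 0 in every library and Ucp1 in all but ANG II 4. In bulk tissue, fewer cells of a type and less RNA per cell cannot be told apart, and the part of these shifts in the results was not tested.

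Across the 46 tested subunit genes, 14 were lower and 3 were higher in ANG II at an adjusted p-value under 0.05 (limma on log2(FPKM + 1), Benjamini-Hochberg adjustment over all genes tested). In the whole table, 4.91% of genes were lower and 28.4% were higher by this rule. With the added threshold of an absolute log2 fold change above 0.5, 1 subunit gene was lower (Cox7a1) and 1 was higher (Cox6a1), beside 1.41% and 14% of all genes. The ANG II and control values did not overlap at 12 lower and 3 higher subunit genes, beside 5.06% and 28.7% of all genes. The log2 fold change was below 0 at 32 of 46 subunit genes, and its median was -0.07, beside 0.15 over all genes tested.

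**Figure D1:**
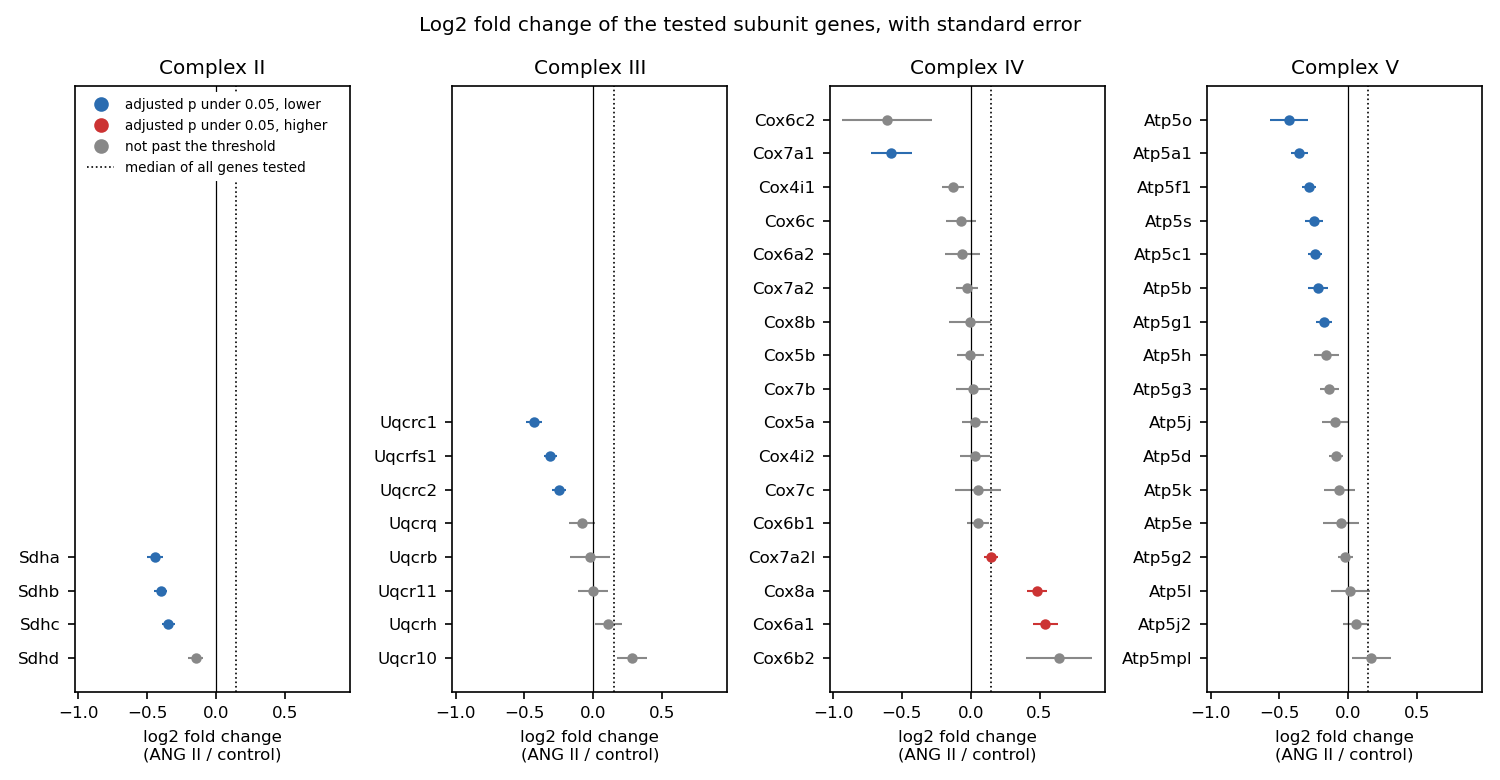
Log2 fold change (ANG II over control, on the log2(FPKM + 1) scale) of the 46 tested subunit genes, grouped by complex, with bars of 1 standard error; blue and red mark an adjusted p-value under 0.05 and the dotted line the median of all genes tested (0.15). Complexes II, III and V have blue points and no red ones, and complex IV has 1 blue point (Cox7a1) and 3 red ones.

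Since the median of all genes stood at 0.15, the direction of small changes depended on how the libraries were scaled. Median-of-ratios scaling brought the all-gene median to 0.004, and 23 subunit genes were then lower and 2 higher, beside 13.1% and 14.6% of all genes. The 2 genes that stayed higher were Cox6a1 and Cox8a. Relative to the all-gene median, the median of the subunit genes was -0.21 as deposited.

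By complex, 3 of 4 genes of complex II, 3 of 8 of complex III, 1 of 17 of complex IV and 7 of 17 of complex V were lower, and 3 genes, all of complex IV, were higher. In the whole table, 4.91% of genes were lower and 28.4% were higher. The median log2 fold change was -0.37 in complex II, -0.05 in complex III, 0.02 in complex IV and -0.14 in complex V. Under median-of-ratios scaling the medians were -0.60, -0.28, -0.21 and -0.37, so that of complex IV changed sign. The counts of lower genes were then 4, 4, 3 and 12, beside 13.1% of all genes. Without ANG II 3 the medians were -0.39, -0.18, -0.11 and -0.20, with 3, 3, 3 and 10 genes lower, beside 4.58% of all genes. The median of complex IV was also below 0 without control 3 (-0.007) or control 4 (-0.02), and that of complex III was -0.002 without ANG II 1. These differences between complexes were not tested.

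The summed FPKM of complex II was 3178, 3147, 3168 and 3099 FPKM in control 1 to 4 and 2295, 2504, 2460.5 and 2321 FPKM in ANG II 1 to 4. It stood at 76.1% of control, and the groups did not overlap. The sum of complex V was 13704, 13899, 13417 and 12974 FPKM in control 1 to 4 and 11124, 11857, 12321 and 11462 FPKM in ANG II 1 to 4, or 86.6% of control, again without overlap. The sum of complex III was 4529, 4652, 4448 and 4255 FPKM in control 1 to 4 and 3795, 3980.2, 4329.6 and 3769 FPKM in ANG II 1 to 4, and the groups overlapped through ANG II 3. The sum of complex IV was 5915, 6075, 5486 and 5362 FPKM in control 1 to 4 and 4982, 5225, 7049 and 5375 FPKM in ANG II 1 to 4, at 99.1% of control, and ANG II 3 was above all other libraries. These sums are descriptions and were not tested, and abundant genes dominate them.

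Complex II oxidises succinate to fumarate and is the only complex shared with the citric acid cycle. Sdha, the flavoprotein subunit that binds succinate (ENSMUSG00000021577, chromosome 13, 74322254 to 74350280 in GRCm38), was at 2007, 1996, 2042 and 2017 FPKM in control 1 to 4 and at 1399, 1567, 1528 and 1447 FPKM in ANG II 1 to 4. All 4 ANG II libraries were below all 4 controls, with a log2 fold change of -0.44 ± 0.0579 (SE) and an adjusted p-value of 0.000373 by limma. Sdhb, the iron-sulfur subunit (ENSMUSG00000009863, chromosome 4, 140961203 to 140979193), was at 590.2, 579.8, 564 and 549 FPKM in control 1 to 4 and at 421, 447, 437 and 422 FPKM in ANG II 1 to 4. The groups stood apart again, and the log2 fold change was -0.40 ± 0.0466 (SE, limma adjusted p = 0.000196).

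Sdhc and Sdhd anchor the complex in the inner membrane and form the site where ubiquinone is reduced. Sdhc was at 249.6, 249, 254 and 239 FPKM in control 1 to 4 and at 189.99, 199, 207 and 184 FPKM in ANG II 1 to 4. It was lower in every ANG II library than in any control, with a log2 fold change of -0.34 ± 0.0494 (SE, adjusted p = 0.00062 by limma). Sdhd was at 331, 322, 308 and 294 FPKM in control 1 to 4 and at 286, 289.8, 288 and 268 FPKM in ANG II 1 to 4. Its groups did not overlap either, but it missed the threshold, with a log2 fold change of -0.15 ± 0.0517 (SE) and an adjusted p-value of 0.0519 by limma. It passed in 7 of 18 alternatives, among them median-of-ratios scaling (-0.38, adjusted p = 0.00063) and the fit without control 4 (adjusted p = 0.0348). Sdha, Sdhb and Sdhc kept their call in all 18 alternative analyses.

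In complex III, the genes that fell encode the large matrix-facing core proteins and the Rieske protein, which carries the iron-sulfur cluster that accepts electrons from ubiquinol. Uqcrc1, a core protein (ENSMUSG00000025651, chromosome 9, 108936633 to 108949623), was at 1184, 1277, 1232 and 1210.5 FPKM in control 1 to 4 and at 892, 987, 886 and 873 FPKM in ANG II 1 to 4. The lowest control was above the highest ANG II library, and the log2 fold change was -0.43 ± 0.0578 (SE, limma adjusted p = 0.000416). Uqcrfs1, the Rieske protein, was at 579, 604, 590.2 and 557 FPKM in control 1 to 4 and at 464, 493, 465 and 454 FPKM in ANG II 1 to 4. It fell without overlap, with a log2 fold change of -0.31 ± 0.0489 (SE, adjusted p = 0.00102 by limma). Uqcrc2, the other core protein, was at 995, 982, 1008 and 977 FPKM in control 1 to 4 and at 856, 868, 811 and 804 FPKM in ANG II 1 to 4. The groups were separate, with a log2 fold change of -0.25 ± 0.0492 (SE) and an adjusted p-value of 0.0038 by limma, although genes on the opposite strand cover 19.7% of its exon bases and the counting was not stated to use strand. All of these 3 kept their call in all 18 alternatives.

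The other 5 genes of complex III, all small subunits, did not pass the threshold, with log2 fold changes from -0.08 to 0.28. The highest was Uqcr10, at 307, 306, 259.8 and 252 FPKM in control 1 to 4 and at 304, 325, 422 and 323 FPKM in ANG II 1 to 4. ANG II 3 was the highest library and the groups overlapped, and the log2 fold change was 0.28 ± 0.109 (SE, limma adjusted p = 0.0731). The log2 fold change of Uqcr10 was 0.18 without ANG II 3 and 0.05 under median-of-ratios scaling, and it passed in 1 of 18 alternatives, voom on the recovered fragments (adjusted p = 0.0434).

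Cytochrome c1 and cytochrome c do not carry the names used here but belong to the same step. Cyc1, the heme-bearing subunit of complex III, stood at 682 ± 17.3 FPKM (SD) in the 4 controls and 561 ± 35.3 FPKM in the 4 ANG II libraries. It fell without overlap, with a log2 fold change of -0.28 ± 0.0558 (SE) and an adjusted p-value of 0.00358 by limma.

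Complex V couples proton flow through a membrane rotor to ATP synthesis in a catalytic head. Atp5b, the catalytic beta subunit, had the highest level of any gene in the set, at 5046, 5306, 5035 and 4941 FPKM in control 1 to 4 and at 4181, 4618, 4358 and 4321 FPKM in ANG II 1 to 4. The groups did not overlap, with a log2 fold change of -0.22 ± 0.0709 (SE, adjusted p = 0.0388 by limma). This call was lost in 9 of 18 alternatives, where the highest adjusted p-value was 0.82. Atp5a1, the alpha subunit of the same head, was at 2673, 2697, 2755 and 2485 FPKM in control 1 to 4 and at 2008, 2190.2, 1999 and 2104 FPKM in ANG II 1 to 4. It fell without overlap, with a log2 fold change of -0.35 ± 0.0641 (SE) and an adjusted p-value of 0.00228 by limma, and kept its call in all 18 alternatives.

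The stalks of complex V link the head to the membrane. Atp5c1, the gamma subunit of the central stalk, was at 986, 939, 928 and 946 FPKM in control 1 to 4 and at 772, 776, 855 and 814 FPKM in ANG II 1 to 4. Every ANG II library was below every control, and the log2 fold change was -0.24 ± 0.0531 (SE, limma adjusted p = 0.00654). Atp5f1, the b subunit of the peripheral stalk, was at 885, 850.4, 889.9 and 858 FPKM in control 1 to 4 and at 723, 735, 728 and 675 FPKM in ANG II 1 to 4. The groups stood apart, with a log2 fold change of -0.28 ± 0.0496 (SE, adjusted p = 0.00186 by limma). The level of Atp5f1 is uncertain, since 8.58% of its 50-base words occur in transcripts of other genes.

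Atp5s, also known as coupling factor B, an associated protein rather than a core subunit, was at 23.1, 24.9, 24.9 and 26.1 FPKM in control 1 to 4 and at 19.8, 19.1, 22.5 and 21.3 FPKM in ANG II 1 to 4. It fell without overlap, with a log2 fold change of -0.25 ± 0.0659 (SE) and an adjusted p-value of 0.0155 by limma. Atp5c1, Atp5f1 and Atp5s kept their call in all 18 alternatives. Atp5o, the subunit at the top of the peripheral stalk, was listed at 12.5, 11.6, 11.7 and 7.78 FPKM in control 1 to 4 and at 7.95, 6.99, 8.87 and 7.16 FPKM in ANG II 1 to 4. Control 4 was below ANG II 1 and ANG II 3, and the log2 fold change was -0.43 ± 0.137 (SE, limma adjusted p = 0.0365), and this call was lost in 8 alternatives. Its level is uncertain, since 14.0% of its 50-base words occur in other transcripts, in part under the second Atp5o row, and genes on the opposite strand cover 35.6% of its exon bases.

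The ring of c subunits, which turns as protons pass, is encoded by Atp5g1, Atp5g2 and Atp5g3, whose mature proteins are the same and whose import sequences differ. Atp5g1 was at 250.1, 241, 235 and 233 FPKM in control 1 to 4 and at 204, 209, 236 and 201 FPKM in ANG II 1 to 4. ANG II 3 lay within the control range, with a log2 fold change of -0.18 ± 0.0577 (SE, adjusted p = 0.0408 by limma), and the call was lost in 10 alternatives. For Atp5g1, 10.2% of the 50-base words occur in other transcripts. Atp5g3 was the most abundant of these genes, at 788, 791, 757 and 713 FPKM in control 1 to 4 and at 634, 714, 773 and 657 FPKM in ANG II 1 to 4, and did not pass, with a log2 fold change of -0.14 ± 0.0709 (SE) and an adjusted p-value of 0.171 by limma. Atp5g3 stood at -0.19 without ANG II 3, with an adjusted p-value of 0.0438, and it passed in 4 of 18 alternatives. Atp5g2 was at 198, 204, 192 and 191 FPKM in control 1 to 4 and at 191, 176, 207 and 202 FPKM in ANG II 1 to 4 and did not pass, and the log2 fold change was -0.02 ± 0.0568 (SE, limma adjusted p = 0.818). It passed in 3 of 18 alternatives, and 38.3% of its 50-base words occur elsewhere. The remaining 8 tested genes of complex V did not pass, with log2 fold changes from -0.16 to 0.17. The highest was Atp5mpl, a small membrane subunit, at 217, 228, 200.5 and 202 FPKM in control 1 to 4 and at 199, 224, 336 and 213 FPKM in ANG II 1 to 4, where ANG II 3 was the highest library. Without it the log2 fold change of Atp5mpl was 0.002, in place of 0.17. Atp5h (-0.25, adjusted p = 0.0117 by limma) and Atp5j (-0.20, adjusted p = 0.0317), named for this alone, passed as lower without ANG II 3.

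**Figure D2:**
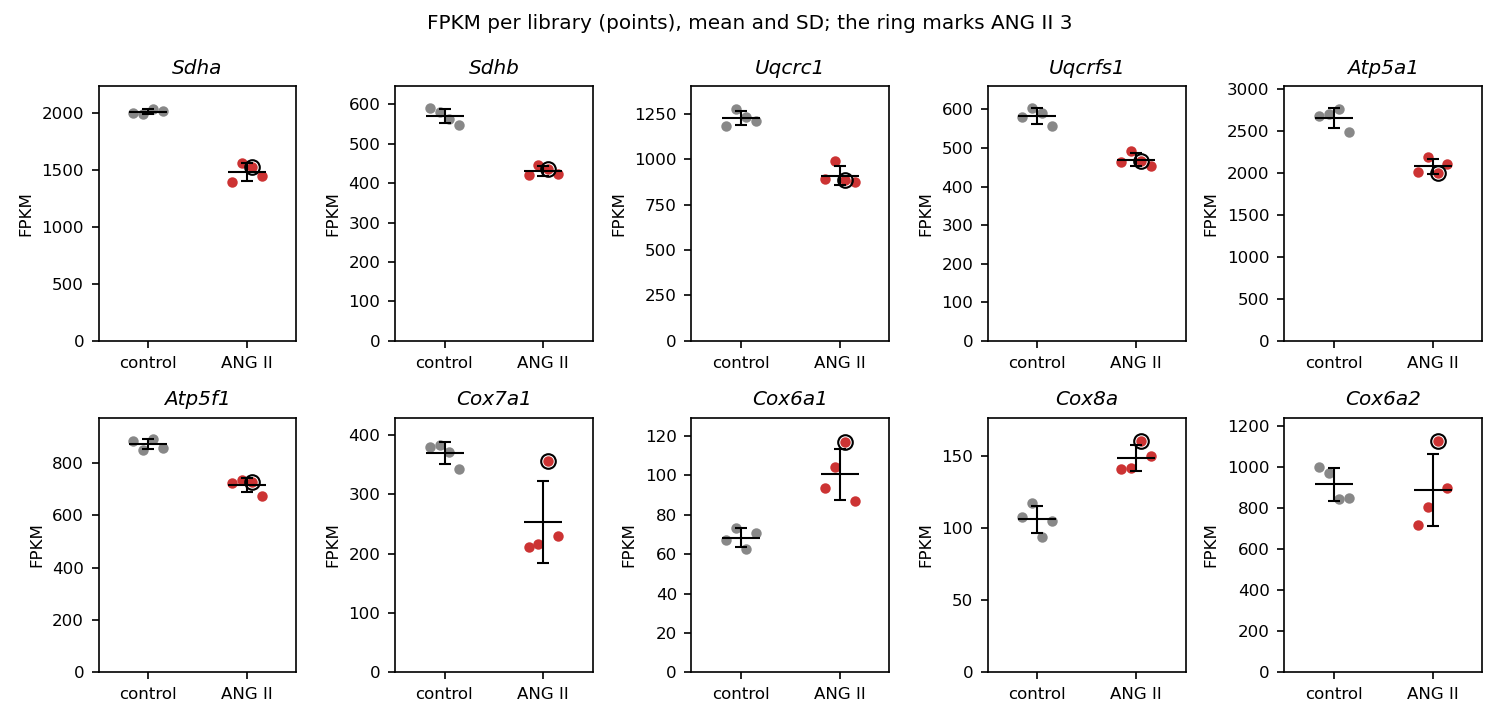
FPKM of 10 subunit genes in the 4 control (grey) and 4 ANG II (red) libraries, with the group mean and SD in black and a ring around ANG II 3; each axis starts at 0. The 2 groups stand apart at Sdha, Sdhb, Uqcrc1, Uqcrfs1, Atp5a1, Atp5f1, Cox6a1 and Cox8a, and overlap at Cox7a1, through ANG II 3, and at Cox6a2, where ANG II 3 and ANG II 4 lie above some controls.

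In complex IV, 1 of 17 tested genes was lower and 3 were higher, beside 4.91% and 28.4% of all genes. Cox7a1, the heart and muscle isoform of subunit 7a (ENSMUSG00000074218, chromosome 7, 30184144 to 30186078), was at 381, 383, 372 and 344 FPKM in control 1 to 4 and at 211, 217, 356 and 229 FPKM in ANG II 1 to 4. ANG II 1, 2 and 4 were below all controls and ANG II 3 was within the control range, with a log2 fold change of -0.58 ± 0.146 (SE, adjusted p = 0.0132 by limma). Without ANG II 3 the log2 fold change was -0.75, with an adjusted p-value of 7.08e-05. Cox7a2, its ubiquitous partner (ENSMUSG00000032330, chromosome 9, 79755361 to 79759878), was at 312, 318, 301 and 274 FPKM in control 1 to 4 and at 274, 282, 343 and 285 FPKM in ANG II 1 to 4. The groups overlapped, with a log2 fold change of -0.03 ± 0.0784 (SE) and an adjusted p-value of 0.812 by limma. It passed in 1 of 18 alternatives, at -0.26 under median-of-ratios scaling (adjusted p = 0.0362), and stood at -0.10 without ANG II 3.

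The coding sequences of these partners are shown because the ratio of the isoforms rests on reads being told apart. Both were read from the principal transcripts in GENCODE M21 (GRCm38), without the stop codon, 5′ to 3′, and bases in capitals differ from the partner or have none in a global alignment. The sequence of Cox7a1 spans 240 bases and that of Cox7a2 249 bases, with 61.6% identity and no shared run above 12 bases.
Cox7a1 (plus strand): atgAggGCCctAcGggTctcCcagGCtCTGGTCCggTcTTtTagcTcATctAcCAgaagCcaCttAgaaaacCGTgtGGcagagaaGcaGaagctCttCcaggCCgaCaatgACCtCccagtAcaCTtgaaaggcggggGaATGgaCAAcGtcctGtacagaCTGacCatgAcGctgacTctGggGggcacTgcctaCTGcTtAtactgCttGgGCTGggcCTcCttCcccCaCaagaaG
Cox7a2 (minus strand): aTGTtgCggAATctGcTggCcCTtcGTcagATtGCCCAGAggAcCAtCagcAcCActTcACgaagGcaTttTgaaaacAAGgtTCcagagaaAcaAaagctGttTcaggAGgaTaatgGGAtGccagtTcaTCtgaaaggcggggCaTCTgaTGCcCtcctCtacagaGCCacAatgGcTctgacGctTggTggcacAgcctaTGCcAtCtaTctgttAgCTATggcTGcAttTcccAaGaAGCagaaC
No 50-base word was shared between the transcripts of the 2 genes, nor between those of any other of the 8 isoform pairs examined.

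The ratio of Cox7a1 to Cox7a2, which does not depend on the scaling of a library, was 1.22, 1.20, 1.24 and 1.25 in control 1 to 4 and 0.771, 0.770, 1.04 and 0.805 in ANG II 1 to 4. Every ANG II library was below every control, and ANG II 3 was the closest to them. The log2 ratio changed by -0.55 (exact two-sided permutation test over 70 allocations, p = 0.0286, the smallest that 4 against 4 can give, and 0.1 after Benjamini-Hochberg adjustment over the 7 ratios tested). It therefore failed the correction.

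Cox6a1, the ubiquitous isoform of subunit 6a (ENSMUSG00000041697, chromosome 5, 115345642 to 115348981), was at 67.3, 73.4, 62.4 and 70.5 FPKM in control 1 to 4 and at 93.5, 104, 117 and 87.2 FPKM in ANG II 1 to 4. All ANG II libraries were above all controls, and the log2 fold change was 0.54 ± 0.0901 (SE, limma adjusted p = 0.00142). Its log2 fold change fell below 0.5 without ANG II 3, at 0.46, without control 3, at 0.498, and under every other scaling of the libraries tried, down to 0.31. Like Cox7a1 and Cox8a, it passed the adjusted p-value threshold in all 18 alternatives, and 9.16% of its 50-base words occur in other transcripts. Cox6a2, the heart and muscle isoform, was the most abundant gene of complex IV, at 1001, 970.5, 843 and 851 FPKM in control 1 to 4 and at 718, 808, 1129 and 898 FPKM in ANG II 1 to 4. The groups overlapped, with a log2 fold change of -0.06 ± 0.128 (SE, adjusted p = 0.753 by limma). The log2 fold change of Cox6a2 was -0.18 without ANG II 3 and 0.03 without ANG II 1, and neither passed. Genes on the opposite strand cover 10.3% of its exon bases.

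The ratio of Cox6a2 to Cox6a1 was 14.9, 13.2, 13.5 and 12.1 in control 1 to 4 and 7.68, 7.78, 9.66 and 10.3 in ANG II 1 to 4. The lowest control was above the highest ANG II library. The log2 ratio changed by -0.60 (exact two-sided permutation test, p = 0.0286, adjusted p = 0.1 over 7 ratios), which again failed the correction.

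Cox8a, the ubiquitous isoform of subunit 8 (ENSMUSG00000035885, chromosome 19, 7215153 to 7217616), was at 108, 118, 94.4 and 105 FPKM in control 1 to 4 and at 142, 142, 161 and 151 FPKM in ANG II 1 to 4. Every ANG II library was above every control, with a log2 fold change of 0.48 ± 0.0714 (SE) and an adjusted p-value of 0.000734 by limma. Cox8b, the heart and muscle isoform, was at 229, 249, 223 and 219 FPKM in control 1 to 4 and at 197, 198, 336 and 211 FPKM in ANG II 1 to 4. ANG II 1, 2 and 4 were below all controls and ANG II 3 was above them, and the log2 fold change was -0.003 ± 0.153 (SE, limma adjusted p = 0.991). Without ANG II 3 the log2 fold change of Cox8b was -0.19, with an adjusted p-value of 0.0338 by limma.

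The ratio of Cox8b to Cox8a was 2.12, 2.11, 2.36 and 2.08 in control 1 to 4 and 1.39, 1.40, 2.09 and 1.40 in ANG II 1 to 4. ANG II 1, 2 and 4 were nearly equal, and ANG II 3 lay within the control range. The log2 ratio changed by -0.49 (exact two-sided permutation test, p = 0.0571, adjusted p = 0.133), and by -0.63 without ANG II 3. In these 3 families the ratio of the heart and muscle isoform to the ubiquitous one had a lower mean in ANG II. How much of this lay in each isoform moved with the scaling, since under median of ratios Cox6a1 stood at 0.31 and Cox6a2 at -0.29, and Cox8a at 0.25 and Cox8b at -0.23.

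**Figure D3:**
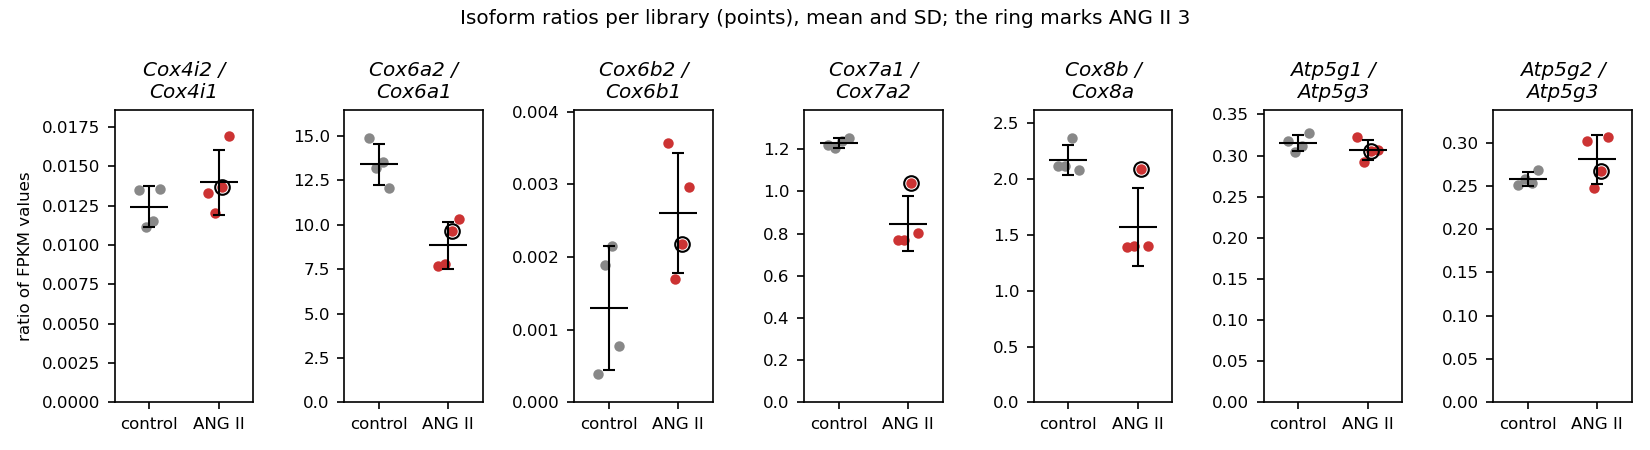
Ratio of the FPKM values of 7 isoform pairs in the 4 control (grey) and 4 ANG II (red) libraries, with mean and SD in black and a ring around ANG II 3; each axis starts at 0. The groups stand apart for Cox6a2/Cox6a1 (mean 13.4 against 8.85) and Cox7a1/Cox7a2 (1.23 against 0.846), and ANG II 3 is the point nearest to or among the controls for Cox7a1/Cox7a2 and Cox8b/Cox8a.

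The other 4 ratios tested overlapped between groups. Cox4i2, the isoform of lung and of low oxygen, stood at 0.0124 of Cox4i1 in control and 0.0140 in ANG II, a log2 difference of 0.16 (exact permutation p = 0.229). Cox6b2, the testis isoform, had 2 to 18 fragments per library, and its ratio to Cox6b1 changed by 0.59 on the log2 scale (exact permutation p = 0.143). The size of this change moved with the pseudocount, to 1.11 with a pseudocount of 0.1 and to 1.25 with none. Among the c subunit genes, the log2 ratio changed by -0.04 for Atp5g1/Atp5g3 and by 0.12 for Atp5g2/Atp5g3 (exact permutation p = 0.343 and 0.257). Their adjusted p-values were 0.25 to 0.343. The testis isoform Cox7b2 was too low for a ratio to Cox7b.

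Cox7a2l, a relative of subunit 7a, was at 191, 176, 179.8 and 169 FPKM in control 1 to 4 and at 195, 198, 203 and 197 FPKM in ANG II 1 to 4. The groups did not overlap, with a log2 fold change of 0.15 ± 0.0478 (SE, adjusted p = 0.0385 by limma), but its fold change equalled the median of all genes. The call held in 5 of 18 alternatives and was lost in 13, and in 3 of these the fold change turned sign without passing, to -0.08 under median-of-ratios scaling, -0.06 under quantile normalization and -0.02 with the length trend removed. It was lost in 7 of 8 fits with 1 library left out. A share of 13.8% of its 50-base words occurs in other transcripts. Cox4i1, the ubiquitous isoform of subunit 4, was at 716, 768, 704 and 679 FPKM in control 1 to 4 and at 598, 649, 768 and 614 FPKM in ANG II 1 to 4 and did not pass, with a log2 fold change of -0.13 ± 0.0814 (SE) and an adjusted p-value of 0.255 by limma. It stood at -0.21 without ANG II 3, with an adjusted p-value of 0.0239, and it passed in 4 of 18 alternatives. Cox6b1, the ubiquitous isoform of subunit 6b, was at 750.5, 763, 709.5 and 710.3 FPKM in control 1 to 4 and at 703, 699.7, 898 and 757 FPKM in ANG II 1 to 4 and did not pass, and the log2 fold change was 0.05 ± 0.0811 (SE, limma adjusted p = 0.657), and its sign turned in 5 of 18 alternatives, without passing, down to -0.18 under median-of-ratios scaling. The widest spread was at Cox6b2, with a log2 fold change of 0.64 ± 0.239 (SE, adjusted p = 0.0646 by limma, and under 0.05 in 4 of 18 alternatives), and at Cox6c2, which is annotated as a processed pseudogene of Cox6c, with -0.61 ± 0.328 (adjusted p = 0.188), or -0.34 without ANG II 1. Of all 17 tested genes of complex IV, 13 did not pass.

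The bases upstream of Cox7a1, which fell, and of Cox6a1 and Cox8a, which rose, are shown from the RefSeq promoter table (GRCm38.p6), in which 34 of the 48 names were found. They were searched on both strands for GCATGCGC (nuclear respiratory factor 1), CCGGAAG (GABP) and AAGGTCA (a site of estrogen-related receptors), factors known to act on respiratory genes, and matches are in capitals. Each is printed 5′ to 3′ on the strand of the gene and ends before the first transcript start of GENCODE M21.
Cox7a1 (chr7:30183921-30184143, plus strand): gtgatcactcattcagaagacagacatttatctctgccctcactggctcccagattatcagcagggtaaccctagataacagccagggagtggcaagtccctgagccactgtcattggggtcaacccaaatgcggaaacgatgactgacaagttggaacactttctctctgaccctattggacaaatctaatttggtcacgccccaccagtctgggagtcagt
Cox6a1 (chr5:115348982-115349208, minus strand): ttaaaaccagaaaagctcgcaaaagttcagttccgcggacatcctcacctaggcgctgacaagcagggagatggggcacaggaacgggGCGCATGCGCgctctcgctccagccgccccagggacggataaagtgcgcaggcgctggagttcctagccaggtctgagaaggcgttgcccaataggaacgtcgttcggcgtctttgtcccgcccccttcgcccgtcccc
Cox8a (chr19:7217617-7217866, minus strand): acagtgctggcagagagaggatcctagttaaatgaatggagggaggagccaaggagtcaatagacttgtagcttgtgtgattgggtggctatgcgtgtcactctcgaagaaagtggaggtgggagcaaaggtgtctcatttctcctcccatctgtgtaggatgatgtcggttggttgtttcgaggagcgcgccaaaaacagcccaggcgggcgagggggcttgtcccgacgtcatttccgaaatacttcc
Cox6a1 held GCATGCGC on both strands, as overlapping matches, and Cox7a1 and Cox8a held none of the 3 motifs in the bases shown. Cox6a1 also held CCGGAAG, outside the bases shown. Over the 250 bases before each RefSeq start, GCATGCGC occurred at 5 of 34 member genes (14.7%) and at 2.56% of all 27025 genes in the table. CCGGAAG occurred at 9 (26.5%) and at 7.83% of all genes, and AAGGTCA at 2 (5.88%) and at 4.70%. A match is a description of the sequence.

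With the deposited scaling, the subunit genes that fell were mostly those with long coding sequences. All 11 members with a coding length of at least 600 bases were lower at an adjusted p-value under 0.05, 10 of them without overlap, whereas 3 of 34 shorter members were lower and 3 were higher. Among other coding genes of at least 1 FPKM, 674 of 10345 with a coding length of at least 600 bases and 157 of 2463 shorter ones were lower. Of the same genes, 4128 long and 724 short ones were higher. Under median-of-ratios scaling 11 of 11 long and 12 of 34 short members were lower, beside 13.1% of all genes, and with the length trend removed 11 of 11 and 11 of 34, beside 14.4%. Over all 18 alternatives, 9 to 11 long and 2 to 12 short members were lower. The split at 600 bases was chosen after the values were seen. Across 45 members with a coding length, Spearman's rho of length and log2 fold change was -0.68, and -0.58 without ANG II 3, a description over genes that share the same libraries.

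ANG II 3 differed from the other ANG II libraries over the short members. Its values were above their mean at 41 of 46 members, by a median of 0.31 on the log2 scale, beside -0.02 over all genes tested. The median was 0.37 over the 34 short members and 0.02 over the 11 long ones, and 0.06 over other short coding genes. Without ANG II 3, 19 members were lower and 2 higher, beside 4.58% and 26.7% of all genes, with 11 of 11 long and 8 of 34 short members lower, and the member median was -0.18. ANG II 3 was also the library with the highest sum of atrial markers, and the part of that in its member values was not tested.

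**Figure D4:**
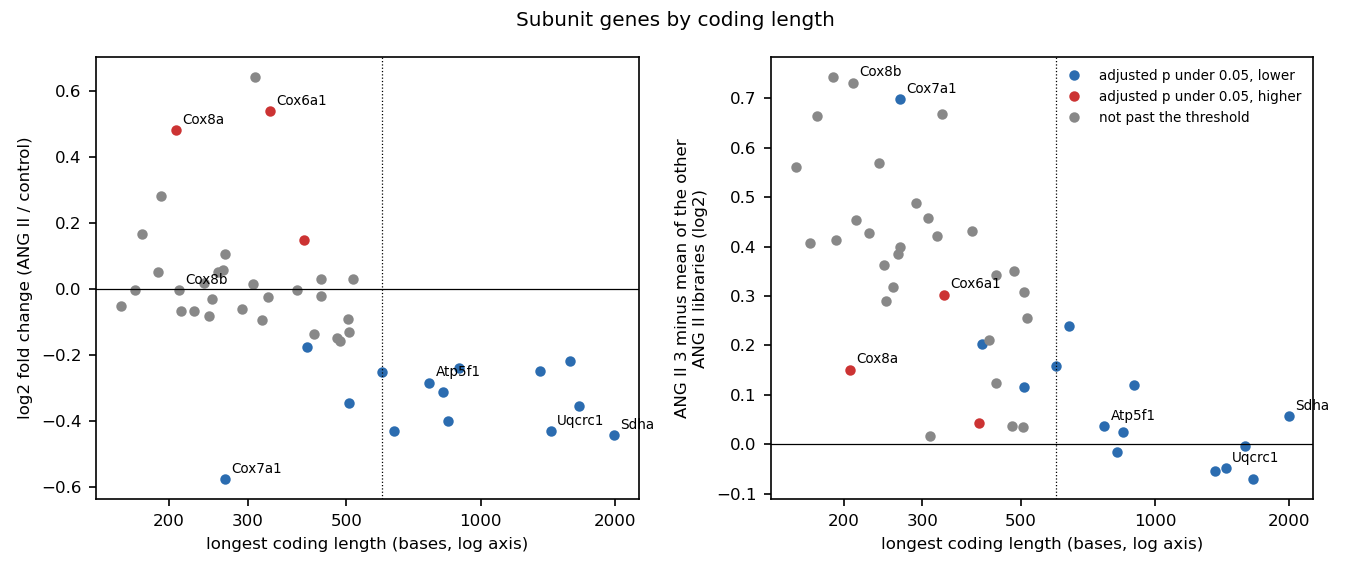
Left, log2 fold change (ANG II over control), and right, the log2 difference of ANG II 3 from the mean of the other ANG II libraries, against the longest coding length in bases (log axis) for 45 subunit genes; the dotted line is at 600 bases. All 11 genes from 600 bases on are blue (lower, adjusted p under 0.05), and ANG II 3 stood above the other ANG II libraries mainly at the shorter genes (median 0.37 against 0.02).

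Assembly factors help to build the complexes without being part of them. Of 39 assembly factors, 35 were tested, 10 were lower, 5 were higher and 1 passed the fold threshold, with a median log2 fold change of -0.11. Over all genes tested, 4.91% were lower, 28.4% were higher and the median was 0.15. For complex II, 0 of 3 tested changed in either direction by limma, from Sdhaf3 at -0.27 (adjusted p = 0.119) to Sdhaf2 at 0.01. For complex III, 2 of 6 were lower and 1 higher. Uqcc1, needed for synthesis of cytochrome b, fell from 128 ± 4.43 to 96.3 ± 2.54 FPKM (mean and SD of 4 libraries, as in the next sentences), a log2 fold change of -0.41 with an adjusted p-value of 0.000129. Uqcc3, another assembly factor of complex III, rose from 20.0 ± 1.13 to 27.1 ± 1.23 FPKM, a log2 fold change of 0.43 with an adjusted p-value of 0.000576.

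For complex IV, 5 of 21 tested assembly factors were lower and 3 higher, and 2 of the lower calls were lost without ANG II 3. Taco1, an activator of translation of the mitochondrially encoded Cox1, fell from 32.4 ± 0.903 to 24.1 ± 0.549 FPKM (log2 fold change -0.41, limma adjusted p = 0.000196). Pet100 rose from 3.53 ± 0.602 to 5.76 ± 1.66 FPKM with overlap (log2 fold change 0.56, limma adjusted p = 0.0312). This call was lost in 12 of 18 alternatives, 6 of them among the 8 fits with 1 library left out, and without ANG II 3 the log2 fold change of Pet100 was 0.40 (adjusted p = 0.0623). For complex V, 3 of 5 were lower and 1 higher, and again 2 of the lower calls were lost without ANG II 3. Tmem70, which helps assemble the c ring, fell from 96.2 ± 1.80 to 74.6 ± 4.85 FPKM (log2 fold change -0.37, limma adjusted p = 0.000693). Atpif1, the inhibitor that blocks ATP hydrolysis by complex V, rose from 5.67 ± 0.205 to 7.85 ± 1.33 FPKM (log2 fold change 0.39, limma adjusted p = 0.0204), a call lost in 7 of 18 alternatives. The log2 fold change of Atpif1 was 0.20 under median-of-ratios scaling (adjusted p = 0.24), 0.10 under quantile normalization (0.585), 0.27 with a common total (0.105) and 0.23 with the length trend removed (0.122), and the call was also lost with voom and without control 3 or ANG II 1 (0.0556 to 0.0593). Under median-of-ratios scaling, 29 of the genes in these lists and the 2 that follow were lower and 1 was higher, in place of 15 and 5. The shares of all genes were then 13.1% lower and 14.6% higher, in place of 4.91% and 28.4%.

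Of 5 further nuclear genes of the chain under other names, 2 were lower and 0 higher, from Cyc1 at -0.28 to Higd2a at -0.02. The partners encoded in mitochondrial DNA were lower at 3 of 6 genes and higher at 0. Beside these 2 lists, 4.91% of all genes were lower and 28.4% were higher. mt-Co3 fell by 0.79 on the log2 scale (adjusted p = 0.0107 by limma), mt-Co2 by 0.48 (adjusted p = 0.00527) and mt-Atp6 by 0.47 (adjusted p = 0.00926). mt-Co1 stood at 80443 ± 1973 FPKM (SD) in the 4 controls and 60505 ± 3629 FPKM in the 4 ANG II libraries, without overlap, and its log2 fold change of -0.41 did not pass (adjusted p = 0.081). mt-Cytb, at -0.24, and mt-Atp8, at -0.56, did not pass either. Without ANG II 3, mt-Co1 and mt-Cytb passed (adjusted p = 0.0267 and 0.0387). With 1 library left out, mt-Atp8 ranged from -0.68 without control 1 (adjusted p = 0.0449) to -0.37 without control 3 (0.135). Over 17 alternatives, mt-Co1 passed in 6, mt-Cytb in 5 and mt-Atp8 in 6, and mt-Cytb turned to 0.11 under quantile normalization without passing. The listed levels of mt-Co2, mt-Co3, mt-Atp6 and mt-Atp8 are uncertain, since their control means of 14.7 to 160 FPKM are far below those of mt-Co1 and of mt-Cytb (26863).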

How the data were processed

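RNA-seq libraries came from left ventricles, 4 of control and 4 of ANG II mice, and were grouped by their treatment labels. The authors deposited FPKM values in a single table, with 1 column per library and no pooling. Bowtie2, HISAT and RSEM are named in the submitters' processing notes without role or version, and the genome build, annotation release and use of strand were not given in the sources used here. The length behind each FPKM value was found to be the mean length of a gene's annotated transcripts, so levels of different genes compare only roughly. The values step by whole fragments (for values under 60 fragments and a tolerance of 0.02, at least 98.99% whole for genes of 1 exon and 96.6% for others), and the fragments behind them were read from those steps. Without molecular identifiers, floors reflect counting error alone.

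limma 3.58.1 in R 4.3.3 (lmFit, eBayes with a variance trend) was run on log2(FPKM + 1) where the mean of a gene reached 0.1 FPKM, with no covariate, and fold changes on this scale understate the change of low genes. Two-sided p-values were adjusted over 19364 genes, and the threshold of 0.5 is the study's, read as log2. The p-values measure the spread between these 8 libraries. Isoform ratios were tested by exact permutation on log2(FPKM + 1) differences. Named genes were the subunit genes with an adjusted p-value under 0.05, isoform partners, and the highest and lowest fold change and highest level of each complex, and, of the other pathway lists, the genes past both thresholds, those with the highest and lowest fold change, and all mitochondrially encoded partners. Members and lists were chosen with earlier results of these data known. Alternatives changed the pseudocount, filter, scaling, variance trend, fold threshold, replicate block and libraries left out, and voom and a removed length trend were added after the data had been seen. Gene positions came from GENCODE M21 (GRCm38), in which 55141 of 55679 IDs were found. The scripts were tested on simulated data. Python 3.11.15, numpy 2.4.6, pandas 2.3.3 and matplotlib 3.10.9 were used.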

Additional observations from a re-analysis of the deposited data

Results flagged for a closer look

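In 14 of 106 groups of 4 libraries examined (the tested subunit genes and ratios in each group), 1 library stood apart from the other 3 by more than Dixon's 95% limit for 4 samples. Chance flags about 1 in 20 independent groups. The groups here share the same 8 libraries, so their count cannot be set against that rate. In 13 of the 14 flagged groups the library apart was ANG II 3, as the highest library. The genes are named here for this reason and not by the rule for named genes.

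In complexes III and IV, ANG II 3 stood at 682 FPKM for Uqcrh (516 to 519 in the other ANG II libraries), 762 for Cox5b (544 to 579), 714 for Cox7b (455 to 497) and 586 for Cox7c (347 to 353). Uqcrh encodes the hinge subunit of complex III, and the others encode small nuclear subunits of complex IV. Among isoforms of complex IV, it stood at 356 FPKM for Cox7a1 (211 to 229), 343 for Cox7a2 (274 to 285) and 336 for Cox8b (197 to 211).

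In complex V, ANG II 3 stood at 158 FPKM for Atp5e (101 to 111), 1094.5 for Atp5h (845 to 878), 581 for Atp5j (426 to 447) and 12.2 for Atp5l (8.44 to 8.68). These encode a central stalk, a pair of peripheral stalk and a membrane subunit.

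The Cox7a1/Cox7a2 ratio was 1.04 in ANG II 3 and 0.770 to 0.805 in the other ANG II libraries, and the Cox8b/Cox8a ratio was 2.09 against 1.39 to 1.40. The Cox8b/Cox8a ratio was also apart in control 3, at 2.36 against 2.08 to 2.12. ANG II 3 had 15119024 fragments, within the range of the other libraries.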

How the results depend on the processing

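Counts are of subunit genes unless stated. In the fit as reported, 14 were lower and 3 higher at an adjusted p-value under 0.05, with 1 lower and 1 higher past the fold threshold, a median log2 fold change of -0.07, and 15 lower and 5 higher genes in the other pathway lists. Median-of-ratios scaling gave 23 lower, 9 lower and 0 higher past the fold threshold, a median of -0.29, and 29 lower and 1 higher in the other lists. Quantile normalization gave 6 lower and 0 higher past the fold threshold, a median of -0.21, and 23 lower and 1 higher in the other lists. A common total (mitochondrial transcripts and the top 10 genes removed) gave 6 and 0 past the fold threshold, a median of -0.21, and 1 higher in the other lists. Removal of the length trend (added after the data had been seen) gave 22 lower, 7 and 0 past the fold threshold, a median of -0.24, and 28 lower and 1 higher in the other lists. voom on the recovered fragments (also added) gave 3 higher in the other lists. A filter at a mean of 1 FPKM gave 2 higher past the fold threshold, a fold threshold of 0.25 gave 10 lower and 2 higher, and a threshold of 1 gave 0 in both directions by limma. The share of all genes that were lower past the fold threshold moved with these counts, from 1.41% as reported to 4.15% under median of ratios, 5.09% under quantile normalization, 2.77% with the common total and 4.13% with the length trend removed. The share of all genes that were lower at an adjusted p-value under 0.05 rose from 4.91% to 13.1%, 15.3%, 8.93% and 14.4% in the same order. The share of all genes that were higher fell from 28.4% to 14.6%, 12.5%, 17.8% and 14.2%. The cause of these shifts was not tested.

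The fold change of Cox7a2l reversed, without passing, to -0.081 under median of ratios, -0.062 under quantile normalization and -0.020 with the length trend removed. Sdha, Sdhb, Sdhc, Uqcrc1, Uqcrc2, Uqcrfs1, Atp5a1, Atp5c1, Atp5f1, Atp5s, Cox7a1, Cox6a1 and Cox8a kept direction and adjusted p-value under 0.05 in all 18 alternatives.

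With each library left out in turn, 11 to 19 subunit genes were lower and 2 to 3 higher, 1 to 2 lower and 0 to 3 higher past the fold threshold, the median was -0.18 to -0.030, the median relative to all genes -0.33 to -0.17, and the other lists had 10 to 15 lower and 3 to 4 higher. The values -0.18, -0.33 and 0 higher past the fold threshold came without ANG II 3, and the 3 higher past the fold threshold without control 2 or ANG II 2. The log2 differences of the isoform ratios ranged from -0.65 to -0.51 for Cox7a1/Cox7a2, -0.68 to -0.54 for Cox6a2/Cox6a1, -0.63 to -0.43 for Cox8b/Cox8a, 0.073 to 0.22 for Cox4i2/Cox4i1, 0.40 to 0.75 for Cox6b2/Cox6b1, -0.063 to -0.017 for Atp5g1/Atp5g3 and 0.071 to 0.18 for Atp5g2/Atp5g3.

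Deviations of like-numbered libraries from their group means correlated at -0.01, 0.09, -0.04 and 0.0007. This cannot show whether libraries of like number were handled together. With the replicate block, 12 subunit genes were lower and 2 higher, and the ratios Cox6a2/Cox6a1 (-0.60) and Cox7a1/Cox7a2 (-0.55) had an exact p-value of 0.125, the smallest that 4 pairs can give.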
